A study of Mus musculus with 20 samples.

Results

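Maternal pronuclei of Tet3 CKO and WT zygotes that had been allowed to replicate their DNA were compared in 4 of the 20 bisulfite libraries of the series. The members were chosen by their labels alone: the mock-treated maternal libraries CKO-Mat replicates 1 and 2, against WT-Mat replicates 1 and 2. CKO zygotes came from eggs of Zp3-Cre, f/- females, in which Cre is driven by an oocyte promoter, and WT zygotes came from eggs of f/f females without Cre in their label. Both kinds of female were superovulated at 7 to 10 weeks of age, and all eggs were fertilised in vitro with C57BL/6J sperm, so the paternal genome had the same source in both groups. Mock zygotes received no aphidicolin, an inhibitor of replicative DNA polymerases. Pronuclei were isolated at 12 h after fertilisation in 5 µM cytochalasin B and frozen at 13 h. The maternal pronucleus was told from the paternal one by its place near the second polar body and its size. About 20 pronuclei were typically pooled per library and amplified over 21 PCR cycles, so reads of one position need not be independent molecules. The labels do not say whether the 2 libraries of a group came from separate females, so p-values measure the spread between these libraries, which may be technical. In the tests of single tiles that spread was pooled over tiles of like depth. These data do not show whether Tet3 was deleted, because methylation calls do not count alleles.

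Tet3 is the dioxygenase supplied by the egg that oxidises 5-methylcytosine after fertilisation, and its best known action is on the paternal genome. Methylation of the maternal genome is also lost in the zygote, in part because the maintenance methyltransferase Dnmt1 does not copy every mark to the new strand during replication. Bisulfite conversion reads 5-methylcytosine and its first oxidation product, 5-hydroxymethylcytosine, alike. Oxidation to that first product by itself therefore does not lower the values below, which does not hold for oxidation in general.

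Reduced representation bisulfite sequencing reads CpGs near MspI sites, whose recognition sequence is CCGG. The libraries held 63856256 and 67247224 CpG calls in CKO pronuclei, against 66360907 and 59446017 in WT pronuclei. In all, 889941 autosomal positions had at least 5 reads in all 4 libraries, with median depths of 42 and 45 reads in CKO and 45 and 40 reads in WT libraries. They filled 166108 tiles of 100 bp with at least 2 such positions, and 110924 tiles of 1000 bp. Tiles were then classed by the gametes, as at least 75% methylated in both libraries of a gamete or at most 25% in both. Over all positions the mean level was 15.8% and 16.7% in CKO pronuclei, against 14.5% and 15.3% in WT pronuclei, a difference of 1.30 points without overlap (exact permutation test, p = 0.333) and of 0.854 points without CKO replicate 2. Sorting gave 19893 tiles methylated in both gametes, 3338 methylated in oocytes only, 27411 methylated in sperm only and 74952 unmethylated in both.

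The last but one of these classes checks the isolation, because a tile methylated in sperm only should be nearly unmethylated in a pure maternal pronucleus. The CKO libraries stood apart here. Methylation of the 27411 sperm-only tiles was 8.67% and 9.75% in CKO maternal pronuclei, against 3.14% and 3.67% in WT maternal pronuclei. Oocytes had 3.06%. The CKO mean was 5.81 points higher, with 5.00 to 6.62 points for the 4 pairs of libraries (two-sided exact permutation test, p = 0.333, and 2 against 2 libraries allow none smaller). The difference was present on every autosome, at 5.17 points on chromosome 15 to 6.40 points on chromosome 17, and the groups did not overlap on any of the 19. Of these tiles, 28.8% and 29.6% were methylated at 10% or more in the CKO libraries, against 10.4% and 12.3% in the WT libraries. Tiles at 90% or more made up 0.423% and 0.861% in CKO and 0.182% and 0.204% in WT.

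If the paternal pronuclei of the same genotype are taken as the source, the sperm-only tiles correspond to a paternal share of 9.53% and 11.6% in the CKO libraries. For the WT libraries the same estimate was 0.0836% and 1.18%. This estimate also rises where the maternal genome itself gains methylation, which cannot be told apart from it by these tiles. Calls on chromosome Y, which is absent from the egg, gave a second estimate from few positions. It was 22.5% and 1.97% in the CKO libraries, against 3.98% and 0.972% in the WT libraries. The groups overlapped in Y share (exact permutation test, two-sided, p = 0.667), and CKO replicate 2, second lowest by Y calls, was highest by sperm-only tiles.

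**Figure D1:**
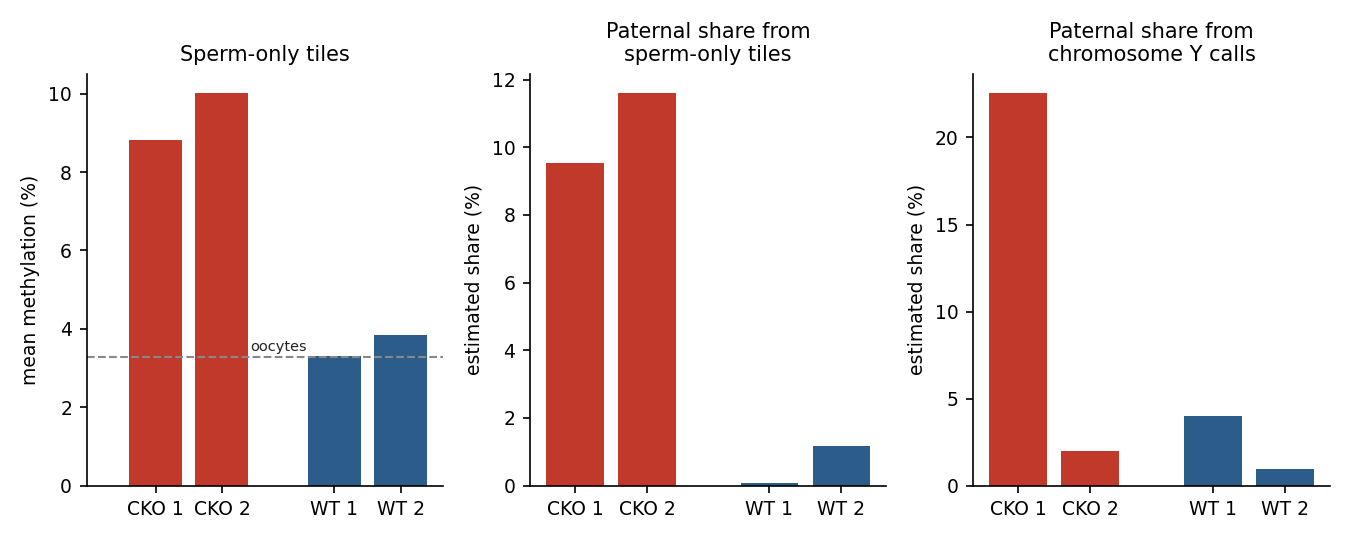
Mean methylation (%) of sperm-only 100-bp tiles in each maternal mock library, and paternal share (%) estimated from these tiles or from chromosome Y calls. The dashed line is the oocyte mean; bars are single libraries, CKO to the left. Sperm-only tiles, here those also covered in paternal libraries, are higher in both CKO libraries than in both WT libraries, while the share from chromosome Y is high in CKO replicate 1 only.

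At tiles methylated in both gametes, both genotypes lay well below oocytes, and they differed from each other by less than the spread between libraries. Their level was 81.4% and 83.3% in CKO pronuclei, against 80.8% and 84.3% in WT pronuclei, and 97.4% in oocytes. Both CKO values lay between the WT values. The CKO mean, 82.3% ± 1.32, was 0.201 points lower than the WT mean, 82.5% ± 2.49 (SD, n = 2 each), and the 4 pairs of libraries ran from -2.89 to 2.49 points (exact permutation test, two-sided, p = 1). A p of this size does not show that the genotypes are alike. On 8 autosomes the CKO mean was higher and on 11 lower, from -2.30 points on chromosome 17 to 1.37 points on chromosome 3. Tiles at 90% or more made up 44.7% and 52.1% of the class in CKO libraries, against 48.8% and 51.0% in WT libraries, and 90.3% and 90.4% in oocyte libraries. Tiles below 50% made up 7.81% and 7.43% in CKO and 9.89% and 5.98% in WT. Both CKO libraries lay above both WT libraries in 13.3% of these tiles and below them in 14.3%. Over all 166108 tiles these shares were 8.29% and 5.28%.

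Tiles methylated in oocytes only were lower in CKO pronuclei as read. Their level was 75.8% and 79.0% in CKO libraries, against 81.4% and 83.6% in WT libraries, and oocytes had 96.3% and 96.4%. The groups did not overlap. The CKO mean was 5.07 points lower, 77.4% ± 2.27 against 82.5% ± 1.58 (SD, n = 2 each), with -7.79 to -2.35 points for the 4 pairs (exact permutation test, two-sided, p = 0.333). The median difference over these tiles was -4.60 points, against 0 over all tiles. The CKO mean was lower on 18 of 19 autosomes, down to -8.61 points on chromosome 13, and the groups did not overlap on 14 of them. Chromosome 18 had 0.993 points more in CKO. Both CKO libraries lay below both WT libraries in 22.7% of the tiles and above them in 8.60%. In 1000-bp tiles of this class these shares were 25.6% and 8.94%, against 7.97% and 15.3% over all 1000-bp tiles. The size of the difference changed little with the number of covered positions, from -4.83 points in tiles with 2 to 3 to -5.92 points in tiles with 8 or more. It did change with the level in oocytes. Among tiles of at most 25% in sperm, the CKO mean was 0.555 points higher where oocytes had under 10%, differed by -0.374 points with overlapping groups where oocytes had 50% to 75%, and by -4.15 and -5.18 points where they had 75% to 90% and 90% or more.

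Within each library the 2 oocyte-methylated classes can be set against each other. Tiles methylated in both gametes exceeded those methylated in oocytes only by 5.59 and 4.25 points in the CKO libraries. In the WT libraries the same differences were -0.589 and 0.693 points. Both CKO differences were above both WT differences.

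**Figure D2:**
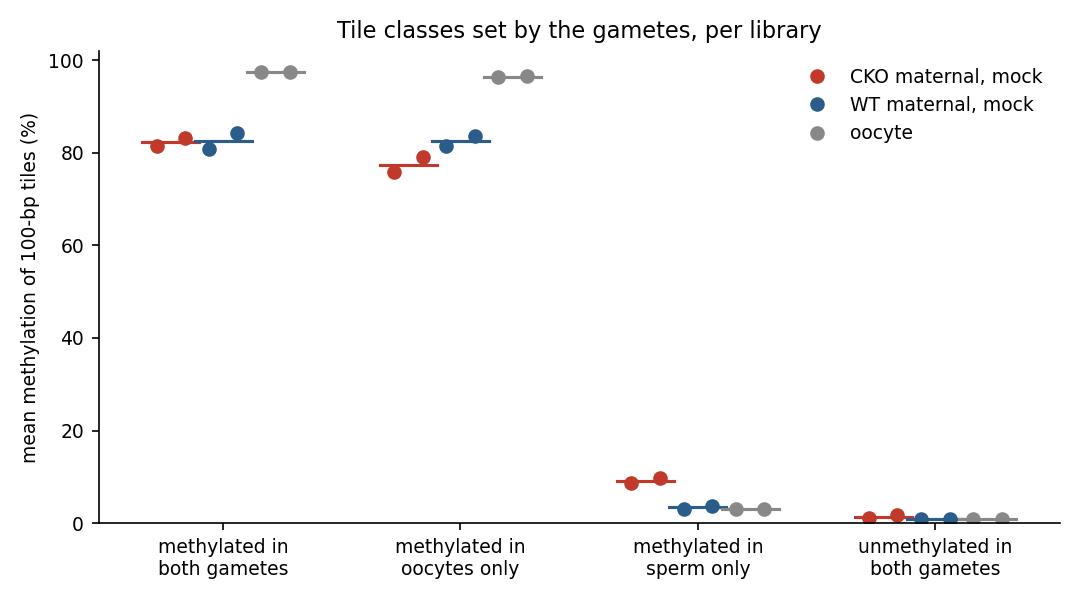
Mean methylation (%) of 100-bp tiles in the 4 gamete classes, in CKO and WT maternal mock pronuclei and in oocytes. Points are libraries and lines their means; CKO and WT points interleave at tiles methylated in both gametes, while CKO points lie lower at oocyte-only tiles and higher at sperm-only tiles.

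When the paternal share estimated from sperm-only tiles was taken off, the lower level at oocyte-only tiles was no longer seen. This removal takes all signal at sperm-only tiles above that of oocytes as paternal. Removal by the Y estimates, 22.5% and 1.97% in the CKO libraries, was not run. On the 2375 oocyte-only tiles also covered in the paternal libraries, the levels as read were 76.4% and 79.3% in CKO and 81.3% and 83.8% in WT libraries. After removal of the share they were 83.5% and 88.5% in CKO and 81.4% and 84.7% in WT libraries, with overlap. The CKO mean was then 2.96 points higher, with -1.23 to 7.15 points for the 4 pairs (exact permutation test, two-sided, p = 0.667). At 9347 tiles methylated in both gametes, removal gave 83.5% and 85.7% in CKO and 81.2% and 85.1% in WT libraries, a difference of 1.51 points that ran from -1.55 to 4.57 points. Tiles unmethylated in both gametes had 1.08% and 1.75% in CKO, against 0.815% and 0.875% in WT, as read. The difference was 0.566 points, and 0.435 points on the 53989 paternally covered tiles after removal, without overlap in either case (p = 0.333 each, exact permutation test, two-sided). CKO replicate 2 held most of that: 415 of its tiles in this class reached 50% or more, 362 of them in that library alone, against 134 in CKO replicate 1, 166 in WT replicate 1 and 133 in WT replicate 2. Only 6 tiles reached it in all 4. Without CKO replicate 2 the difference was 0.232 points.

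**Figure D3:**
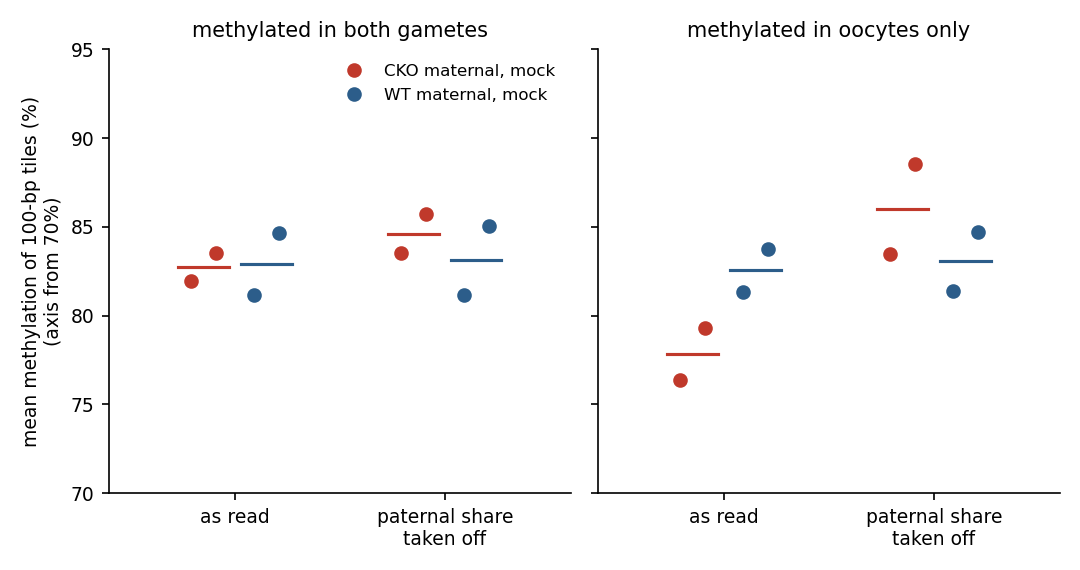
Mean methylation (%, axis from 70%) of tiles methylated in both gametes (left) and in oocytes only (right), as read and after the paternal share estimated from sperm-only tiles was taken off. Points are libraries and lines their means; at oocyte-only tiles the CKO points lie below the WT points as read and overlap them afterwards.

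Paternal mock pronuclei gave the contrast. On 9141 tiles methylated in both gametes and covered in all 8 mock libraries, maternal levels were 81.7% and 83.4% in CKO, against 81.0% and 84.6% in WT. Paternal levels were 67.2% and 66.3% in CKO, against 49.3% and 53.2% in WT. The CKO minus WT difference was -0.228 points in maternal and 15.5 points in paternal pronuclei, so it was 15.7 points smaller in the maternal ones. An exact permutation of genotype within each parent gave p = 0.167, where 36 arrangements allow no less than 0.0556. Aphidicolin, given at 3 µg/ml from 5 h after fertilisation, served as the other contrast. On 4730 tiles methylated in both gametes the maternal levels with aphidicolin were 95.2% and 95.8% in CKO, against 95.7% and 95.6% in WT, and the mock levels on the same tiles were 81.2% and 83.3% in CKO, against 80.7% and 83.6% in WT. The genotype difference was 0.0918 points in mock and -0.155 points in aphidicolin pronuclei (exact permutation within treatment, p = 0.722). On 888 oocyte-only tiles it was -4.28 points in mock and -3.29 points in aphidicolin pronuclei (exact permutation within treatment, p = 0.722). There, CKO aphidicolin libraries had 86.0% and 93.2%, against 92.6% and 93.2% in WT aphidicolin libraries, so CKO replicate 1 alone was low. That library also had more methylation at sperm-only tiles, 8.95% against 4.93% in CKO aphidicolin replicate 2 and 4.44% and 4.53% in WT aphidicolin libraries. What this contributes was not tested. Without that library, over all covered oocyte-only tiles, the aphidicolin difference was 0.149 points, against -3.36 points with it. After adjustment over the 9 permutation tests the smallest adjusted p was 0.60 (Benjamini-Hochberg over exact permutation tests).

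**Figure D4:**
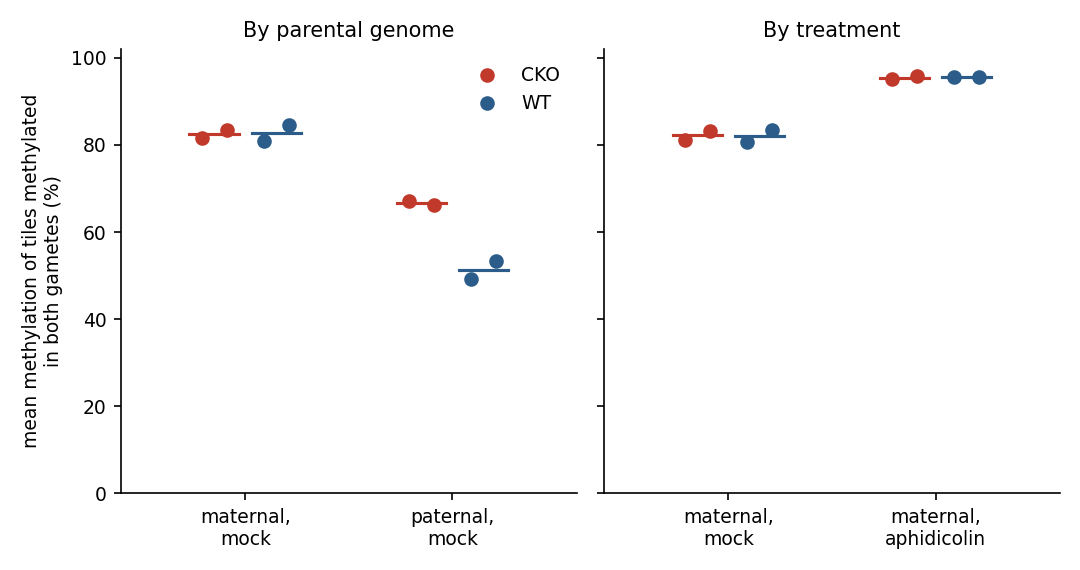
Mean methylation (%) of tiles methylated in both gametes, in CKO and WT pronuclei, maternal against paternal mock (left) and maternal mock against maternal aphidicolin (right). Points are libraries and lines their means; CKO lies above WT in paternal pronuclei only, and the genotypes overlap in maternal pronuclei under either treatment.

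Single tiles rarely passed the test. A quasi-binomial model of methylated and unmethylated calls, with dispersion moderated across tiles by limma and Benjamini-Hochberg adjustment over all tiles, called 2 of the 166108 tiles of 100 bp higher and 2 lower in CKO pronuclei (0.0012% each) counting those with an adjusted p under 0.05 that also differed by 10 points or more. At an unadjusted p under 0.05 there were 1307 higher and 618 lower. Of the 110924 tiles of 1000 bp it called 12 higher (0.0108%) and 19 lower (0.0171%). Limma on arcsine square roots called 0 tiles of either size, with 2724 higher and 2361 lower 100-bp tiles, and 3953 higher and 2311 lower 1000-bp tiles, at an unadjusted p under 0.05. Of the 31 called 1000-bp tiles, 20 stayed called without CKO replicate 1, 10 without CKO replicate 2, 2 without WT replicate 1 and 9 without WT replicate 2. Without CKO replicate 1 the higher 1000-bp calls numbered 33. Of the 4 called 100-bp tiles, 4 stayed called without CKO replicate 1, 0 without CKO replicate 2, 0 without WT replicate 1 and 1 without WT replicate 2.

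Of the 19 lower 1000-bp tiles, 18 had at most 10% methylation in sperm, as did 6 of the 12 higher ones and 29.9% of the 108258 tiles of 1000 bp read in both gametes. In oocytes 12 of the lower tiles had between 10% and 90%, 4 had 90% or more and 3 had 10% or less. Of the higher tiles 3 lay between 10% and 90%, against 17.9% of all such tiles. The 10 called tiles with the largest difference in each direction had 2.07 to 20.1 times the median depth. The shares over all tiles were not matched for depth. Averaged over the 19 lower tiles, the level was 18.5% in CKO and 56.7% in WT mock maternal pronuclei. In aphidicolin maternal pronuclei it was 45.3% in CKO and 44.9% in WT, and oocytes had 48.2%. Over the 12 higher tiles the averages were 49.1% in CKO and 6.61% in WT mock pronuclei, 37.5% in CKO and 47.9% in WT aphidicolin pronuclei, and 46.0% in oocytes. The mock groups were chosen to differ there. In the aphidicolin libraries, which the choice did not use, the genotype difference had the same sign at 9 of the 18 lower tiles and 2 of the 9 higher tiles covered in all 4.

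Of the 4 called 100-bp tiles, 1 lay on chromosome 14 at 78707601 to 78707700 (mm9 coordinates, as for all places below) and was methylated in oocytes only. It had 59.6% and 80.9% in CKO libraries, against 0% in both WT libraries (adjusted p = 0.0166, quasi-binomial test). A tile on chromosome 2 at 152460301 to 152460400, unmethylated in both gametes, had 42.8% and 91.6% in CKO, against 1.99% and 0% in WT (adjusted p = 0.000166, quasi-binomial test). Its level in aphidicolin libraries was 62.0% and 0% in CKO and 79.6% and 51.1% in WT, so levels over 50% were also seen in WT aphidicolin pronuclei. A tile on chromosome 2 at 149656801 to 149656900 was 332 bp from the start of Syndig1, a synaptic membrane protein gene, and had 2.38% and 5.66% in CKO, against 99.9% and 33.5% in WT (adjusted p = 0.000658, quasi-binomial test). A tile on chromosome 17 at 46633801 to 46633900, 112 bp from the start of Dnph1, had 38.7% and 21.5% in CKO, against 85.5% and 99.3% in WT (adjusted p = 0.00518, quasi-binomial test). Oocytes were intermediate at both, with 55.0% and 42.0% near Syndig1 and 52.5% and 47.6% near Dnph1.

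Genes were named through promoter windows, 250 bases before to 50 bases after each start, from RefSeq (GRCm38.p6). Each was placed in the mm9 files by the spacing of its CpGs, without an mm9 annotation, so single places and gene names may be wrong. Of 31396 autosomal windows, 6533 of 6247 genes were placed, and 6147 windows of 5893 genes were read in the 4 libraries. The motif CCGG, which reads the same on both strands, occurred in 6531 of the 6533 placed windows and in 52.8% of all windows of the table. Promoters with the widest gap, and those of maternally imprinted genes and of Dnmt1, carry the results below. Their sequences are given 5′ to 3′ in the direction of the gene, with every CpG in capitals.
Pdf, chr8:109572465-109572764, minus strand: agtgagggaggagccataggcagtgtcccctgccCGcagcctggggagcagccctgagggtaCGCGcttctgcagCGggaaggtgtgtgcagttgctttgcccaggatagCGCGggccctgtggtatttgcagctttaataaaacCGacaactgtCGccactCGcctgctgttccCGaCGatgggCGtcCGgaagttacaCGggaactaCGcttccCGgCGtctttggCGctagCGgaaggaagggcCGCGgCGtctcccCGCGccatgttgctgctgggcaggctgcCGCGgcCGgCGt
Mcts2, chr2:152512634-152512933, plus strand: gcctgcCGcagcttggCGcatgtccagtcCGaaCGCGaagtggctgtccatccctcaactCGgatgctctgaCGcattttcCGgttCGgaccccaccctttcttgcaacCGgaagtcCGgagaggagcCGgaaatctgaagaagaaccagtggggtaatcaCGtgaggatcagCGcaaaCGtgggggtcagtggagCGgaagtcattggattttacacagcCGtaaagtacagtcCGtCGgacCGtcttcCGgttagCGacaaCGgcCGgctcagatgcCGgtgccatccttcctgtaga
Plagl1, chr10:12810388-12810687, plus strand: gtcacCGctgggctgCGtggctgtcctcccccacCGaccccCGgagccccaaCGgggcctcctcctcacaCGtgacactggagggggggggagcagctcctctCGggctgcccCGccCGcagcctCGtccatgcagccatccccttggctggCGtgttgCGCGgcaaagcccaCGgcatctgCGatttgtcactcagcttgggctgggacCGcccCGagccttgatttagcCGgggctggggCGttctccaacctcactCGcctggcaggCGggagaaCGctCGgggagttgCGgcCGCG
Dnmt1, chr9:20757018-20757317, minus strand: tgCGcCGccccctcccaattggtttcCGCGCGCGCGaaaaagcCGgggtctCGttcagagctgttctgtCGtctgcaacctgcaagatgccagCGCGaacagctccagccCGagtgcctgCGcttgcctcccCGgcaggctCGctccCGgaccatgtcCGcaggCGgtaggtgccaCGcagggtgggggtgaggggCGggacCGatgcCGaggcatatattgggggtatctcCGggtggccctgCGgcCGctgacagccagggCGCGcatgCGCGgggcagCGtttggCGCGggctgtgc
The windows hold 28, 25, 26 and 33 CpGs in that order, and 3, 7, 2 and 4 CCGG sites. Only CpGs near such a site, inside the window or just outside it, can be read.

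Promoters methylated in oocytes only lost more in CKO pronuclei as read. The 126 windows of 121 genes had means of 76.0% and 77.9% in CKO, against 83.8% and 88.2% in WT, and 94.8% in oocytes. The groups did not overlap, and the mean was 77.0% ± 1.30 in CKO, against 86.0% ± 3.11 in WT (SD, n = 2 each). The CKO mean was lower at 94 and higher at 31 windows. Both CKO libraries lay below both WT libraries at 37 windows (29.4%) and above them at 8 (6.35%). Over all 6147 windows these shares were 5.65% and 6.54%. At 50 windows both WT libraries had 90% or more, and at 24 windows both CKO libraries did. Removal of the paternal share, as estimated from sperm-only tiles, left little of this on the 111 windows covered in paternal libraries. The levels became 82.7% and 86.7% in CKO, against 82.8% and 88.5% in WT. That was a difference of -0.889 points, against -8.56 points as read.

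Other promoter classes were small or near 0. The 63 windows partly methylated in oocytes and low in sperm had 29.4% and 27.4% in CKO, against 34.2% and 36.2% in WT, and 50.5% in oocytes. Their groups did not overlap, and the CKO minus WT difference was -6.81 points. The 5 windows methylated in both gametes had 87.3% and 84.8% in CKO, against 73.7% and 87.2% in WT. Among them the windows placed as Fam216a and Gpn3 overlap, so the same place was counted for both. Each had 80.0% and 75.2% in CKO, against 49.0% and 80.0% in WT. The 8 windows methylated in sperm only had 5.64% and 27.9% in CKO, against 2.62% and 1.99% in WT. The value in CKO replicate 2 came mainly from the windows placed as Lmo4 and LOC108167929. They had 80.0% and 66.3% in that library and 0% in the others. Neither gene name was checked against an mm9 annotation. The 5679 windows unmethylated in both gametes had 0.763% and 0.652% in CKO, against 0.596% and 0.660% in WT, with overlap.

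Of the promoters with the widest gap between the groups, chosen for that gap and so given with no test, the widest was that of Pdf, a mitochondrial peptide deformylase. Its window, the first of the sequences above, had 0% and 11.5% in CKO, against 100% and 93.5% in WT, and 100% in oocytes. The 1000-bp tile that holds it was among the 19 called lower, with 55.6% and 50.7% in CKO and 99.9% and 98.1% in WT libraries (adjusted p = 0.00132, quasi-binomial test). Maz, a zinc finger transcription factor, had 15.1% and 30.6% in CKO, against 85.9% and 99.8% in WT, and 92.0% and 93.5% in the CKO aphidicolin libraries. Acsf2, an acyl-CoA synthetase, had 15.3% and 0% in CKO, against 81.2% and 59.3% in WT. In aphidicolin libraries Acsf2 had 25.1% and 98.9% in CKO and 37.4% and 95.6% in WT, so 1 library of each genotype was low there. Nrsn2, a neuronal membrane protein gene, had 22.9% and 9.81% in CKO, against 83.8% and 69.7% in WT, and 60.5% in oocytes. Its aphidicolin levels were 81.3% and 100% in CKO and 31.8% and 93.4% in WT, so the genotypes overlapped there. Gm39098 completed the lower group with 33.3% and 49.2% in CKO, against 99.0% and 100% in WT.

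In the other direction, Stk32b, a serine/threonine kinase, had 68.6% and 66.7% in CKO, against 34.2% and 34.5% in WT, and 35.0% in oocytes. In aphidicolin libraries Stk32b had 41.8% and 67.7% in CKO and 63.7% and 34.9% in WT, so the genotypes overlapped there. Samm50, a subunit of the mitochondrial outer membrane assembly machinery, had 82.0% and 81.2% in CKO, against 26.5% and 54.5% in WT. Oocytes had 97.6% there, so both WT libraries lay far below the egg. Spsb2, an adaptor of ubiquitin ligases, had 38.1% and 32.7% in CKO, against 9.01% and 9.02% in WT. In aphidicolin libraries Spsb2 had 70.1% and 45.6% in CKO and 15.7% and 100% in WT, a range that spans nearly the whole scale. Plin5, a lipid droplet coat protein, had 19.7% and 23.8% in CKO and 0% in both WT libraries. Oocyte replicate 2 had 100% there, and oocyte replicate 1 was not read. In aphidicolin libraries Plin5 had 0% and 9.21% in CKO and 75.9% in WT replicate 1, with WT replicate 2 not read. Inka2 had 65.7% and 68.6% in CKO, against 49.9% and 49.0% in WT.

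**Figure D5:**
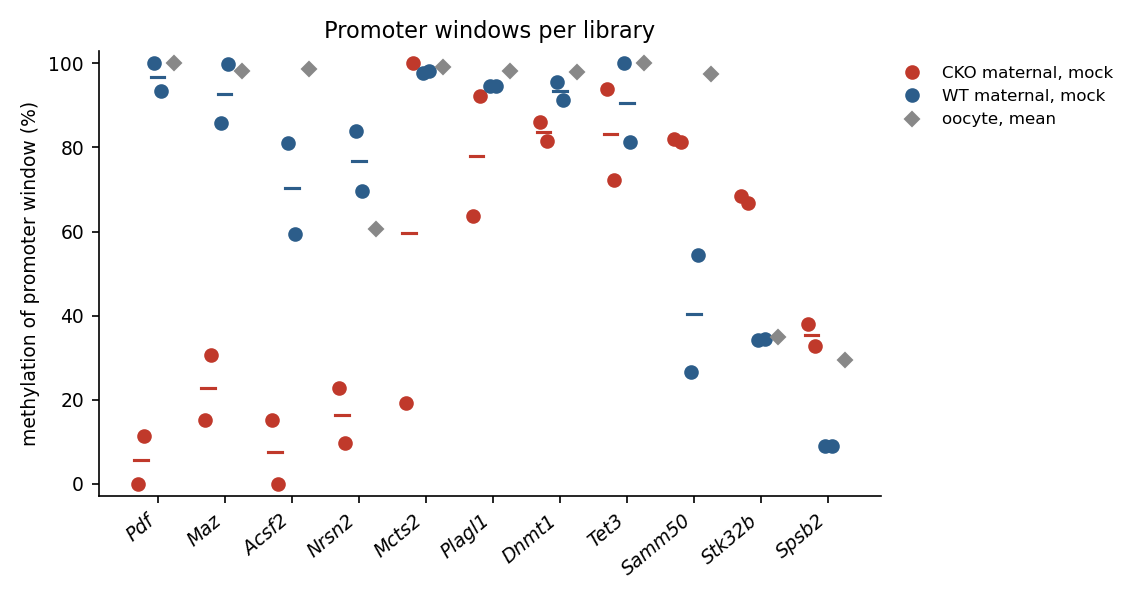
Methylation (%) of promoter windows in CKO and WT maternal mock libraries, with the oocyte mean. Points are libraries and short lines group means; from Pdf to Nrsn2 CKO is below WT, from Samm50 to Spsb2 it is above, these genes having been chosen for the gap, and the 2 CKO points of Mcts2 and of Plagl1 lie far apart.

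Of 21 imprinted genes listed, 6 had a window read in these libraries. Mcts2 and Plagl1 are expressed from the paternal allele and inherit methylation from the egg. The Mcts2 promoter had 19.3% and 100% in CKO, against 97.6% and 98.2% in WT, and 99.2% in oocytes. The low value was that of CKO replicate 1 alone, from at least 311 calls per library at 13 positions, and all 4 maternal aphidicolin libraries had 99.7% or more. Plagl1, a zinc finger regulator of growth, had 63.6% and 92.2% in CKO, against 94.6% and 94.7% in WT. Here too CKO replicate 1 was low, while CKO replicate 2 was near the WT libraries. Unlike Mcts2, Plagl1 was also low with aphidicolin, at 47.6% in CKO replicate 1, against 100% in CKO replicate 2. WT aphidicolin replicate 2 had 80.3%, and replicate 1 was not read there. The overlapping window of Hymai, a transcript of the same promoter, had 67.2% and 93.5% in CKO, against 95.8% and 90.6% in WT, from 16 positions. The placed windows of Grb10, Igf2 and Igf2r, a growth factor receptor adaptor, an insulin-like growth factor and its clearance receptor, were at or near 0 in all 4 libraries except Igf2r in CKO replicate 2, with 6.75%. Oocyte means there were 0.408%, 0% and 0%, so these windows were not methylated in the egg either. Of 2 Gnas windows, 1 was at 0% in all 4 libraries, and the other had 7.65% and 17.8% in CKO and 0% in both WT libraries, from 3 positions.

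The promoters of Dnmt1, the maintenance methyltransferase, and of Tet3 itself were read as well, and were chosen after their values were seen. Dnmt1 had 86.0% and 81.4% in CKO, against 95.6% and 91.2% in WT, and 98.0% in oocytes, without overlap. Tet3 had 94.0% and 72.3% in CKO, against 100% and 81.4% in WT, with overlap, from 4 positions.

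Agreement between libraries of 1 group sets how far single tiles can be read. Across the 19893 tiles methylated in both gametes, the levels of the 2 CKO libraries had a Pearson correlation of 0.167 and a median absolute difference of 13.6 points. The 2 WT libraries had 0.249 and 12.8 points. Pairs of a CKO and a WT library lay at 0.182 to 0.211 and 12.1 to 14.6 points, so their correlations fell between those of the same-genotype pairs and their absolute differences on both sides. These correlations are across tiles, which share their library, depth and base composition and are not replicates.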

How the data were processed

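Genomic DNA of pronuclei was digested with MspI, bisulfite converted and sequenced, per the labels' protocols. The submitters' processing notes name Trim Galore, Bismark 0.10.1 and the mm9 build, and duplicate removal is not given in the sources used here. The deposited files hold raw counts of methylated and unmethylated calls at each CpG position. The percent the authors deposited beside them follows from those counts (largest difference 7.11e-14). Groups came from the labels. Tile levels pooled the calls of positions read 5 times or more in each of the 4 libraries, and class means weighted tiles equally.

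Class means were compared by exact two-sided permutation. Tiles were tested by a quasi-binomial model with limma 3.58.1 (R 4.3.3) squeezeVar, trended on depth with a floor of 1, F test and Benjamini-Hochberg adjustment. It was also run on simulated counts, whose overdispersion was set and not estimated from these data, so that run does not give its error rate here. The paternal share was solved from sperm-only tiles, with oocytes and the paternal mock libraries of the same genotype as the ends. Genes were tied to mm9 positions by matching CpG spacing (at least 10 positions, 1 place, a neighbouring window at the same offset), since no annotation of mm9 was used here. The neighbouring window could overlap the first, also in the same gene, so windows placed wrongly together would pass. Overlapping windows were merged within a gene only. Named regions were all called 100-bp tiles and the first 5 in each direction by the gap between the nearest libraries, among those of at least 100 calls in each library; the use of this gap rule on promoters, and of the imprinted list through placed windows, was added after the files were seen. The members and lists were chosen with earlier results of these data known. Depth sets counting error only, because PCR copies are not independent molecules. Python 3.11.15, numpy 2.4.6 and scipy 1.17.1 were used.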

Additional observations from a re-analysis of the deposited data

Results flagged for a closer look

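At tiles methylated in oocytes only, the genotype difference ran in opposite directions in the 2 parental genomes. It was -5.07 points in maternal mock pronuclei, where all 4 pairs of libraries were below 0, and 4.28 points in paternal mock pronuclei, where all 4 pairs were above 0, from 0.0675 to 8.49 points. It was the only 1 of 8 such contrasts with opposite directions, was picked out for that, and so is given with no test. On the paternal side 1 library carried it: the levels were 12.5% and 5.55% in CKO, against 4.01% and 5.48% in WT, and without CKO paternal replicate 1 the difference was 0.80 points. That library also had less methylation at sperm-only tiles than CKO paternal replicate 2, 57.8% against 63.6%, and a lower share of calls on chromosome Y, 0.00752% against 0.0186%. On the maternal side sperm-only tiles had 8.67% and 9.75% in CKO, against 3.14% and 3.67% in WT. The part of either signal in the contrast was not tested.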

How the results depend on the processing

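With single libraries left out the mean over positions differed by 0.854 to 1.74 points. The difference at sperm-only tiles kept its direction under every alternative run on it, at 5.26 to 6.35 points with single libraries left out. Oocyte-only tiles stayed lower, at -6.67 to -3.46 points with single libraries left out, and reversed to 2.96 points with the other parent taken off; oocyte-only promoters moved to -0.889 points there. Tiles methylated in both gametes reversed to 1.51 points with the other parent taken off, and ran from -1.96 to 1.56 points with single libraries left out. The paternal tile sets and the promoter alternatives were chosen after seeing the data. With single libraries left out, the Y share ran from -0.000149 to 0.00253 percent of calls, the parent contrast from -17.5 to -13.9 points, the treatment contrast from -1.19 to 1.69 points at tiles methylated in both gametes and from -2.80 to 0.826 points at oocyte-only tiles.

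Counts of called tiles changed with the fit. With all 10 maternal and oocyte libraries only 50917 tiles of 100 bp and 42402 of 1000 bp could be tested, which held 2 of the 4 and 23 of the 31 called tiles. At 100 bp, higher and lower calls were 0 and 0 with all 10 maternal and oocyte libraries, 0 and 0 by limma on arcsine square roots, 23 and 24 with no trend on depth, 340 and 224 with dispersion from all groups, and 0 to 6 and 0 to 3 with single libraries left out. At 1000 bp they were 1 and 0 with all 10 libraries, 0 and 0 on arcsine square roots, 76 and 54 with no trend, 264 and 138 with dispersion from all groups, and 1 to 33 and 1 to 15 with single libraries left out. The cause of the other changes was not tested. Across tiles, deviations of libraries with the same replicate number were nearly uncorrelated (0.00235 over 2 pairs). That value cannot tell whether the library means were paired. Replicate 2 was above replicate 1 in both genotypes for the mean over positions and for each gamete class. With a replicate block the mean differences were the same by construction (5.81 points at sperm-only tiles, exact sign-flip p = 0.50), and the calls were 1 and 1 at 100 bp and 4 and 6 at 1000 bp. Of the 42 named tiles 24 were called, and of these 24 lost their call on arcsine square roots and 23 without WT replicate 1.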
